A study of Mus musculus with 4 samples.

Results

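Small leucine-rich proteoglycans are secreted matrix proteins built around a curved run of leucine-rich repeats, most of which carry sugar chains. They bind collagen fibrils and set fibril width and spacing, and several also bind TGF-beta or cell-surface receptors. Connective-tissue fibroblasts are a main source of them. The 9 genes described here were Dcn, Bgn and Aspn (class I), Lum, Fmod, Prelp and Omd (class II), Ogn (class III) and Podn (class V). They were chosen by name from 55573 gene identifiers, with earlier results of these data known. Each matched 1 identifier through GENCODE M21.

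RNA was sequenced from MEFs, primary fibroblasts cultured from mouse embryos and not an established line. There were 4 groups with 1 library each: Dyrk2 knockout cells (Dyrk2-KO), wild-type cells (WT), wild-type cells given an siRNA against Dyrk2 (siDyrk2) and wild-type cells given a negative-control siRNA (siNeg). Dyrk2 encodes a protein kinase, and the series studies its place in Hedgehog signalling. Every culture, controls included, was treated with SAG, a small-molecule agonist of the Hedgehog transducer Smoothened, at 100 nM for 24 h, so no value here is from cells without the agonist. The labels do not say whether cultures came from separate embryos, which allele the knockout carries, or how many embryos were pooled. Since a group is a single library, no test could be made, and each difference given compares libraries without replication.

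The deposited unit is FPKM, fragments per kilobase of exon per 1e+06 fragments assigned to genes. Estimated depth, in units of 1e+06 fragments, was 21.9 in KO and 23.9 in WT, and 21.5 with siDyrk2 and 20 with siNeg. Dyrk2 was at 0.57 FPKM in KO against 6.59 in WT, and at 0.81 with siDyrk2 against 7.06 with siNeg. The Hedgehog target Gli1 was at 0.24 FPKM in KO against 28.81 in WT, and at 2.25 with siDyrk2 against 30.17 with siNeg. Fibroblast genes were abundant, with Col1a1 at 3275.54 FPKM in KO and 3233.43 in WT, and at 2376.9 with siDyrk2 and 3207.77 with siNeg. They were not all level. Of 10 listed fibroblast markers 7 were higher and 3 lower in KO than in WT. Among all genes with at least 1 FPKM in a library these shares were 43.7% and 55.6%. Thy1 was at 159.1 FPKM in KO and 287.88 in WT, and at 298.97 with siDyrk2 and 369.61 with siNeg. With siDyrk2 5 of the 10 were higher and 5 lower than with siNeg, beside 54.3% and 45% of genes with at least 1 FPKM in a library. Y-linked transcripts set the knockout library apart, with a summed level over 4 genes of 14.85 FPKM in KO and 0.02 in WT, and 0 in both siRNA libraries. Knockout and this difference between cultures cannot be told apart in the comparison of KO with WT.

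The members share a signature outside their repeats, a cluster of 4 cysteines ahead of them, whose spacing defines the classes. The coding DNA over that cluster is shown for all 9 members because it is the feature that sorts them. It was read from GENCODE M21 transcripts (GRCm38), 5′ to 3′ on the coding strand, and the capitals mark the cysteine codons.
Dcn: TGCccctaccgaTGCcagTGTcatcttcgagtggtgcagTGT
Bgn: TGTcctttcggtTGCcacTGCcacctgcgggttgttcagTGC
Aspn: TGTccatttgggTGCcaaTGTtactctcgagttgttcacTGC
Lum: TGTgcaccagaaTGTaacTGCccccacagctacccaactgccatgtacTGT
Fmod: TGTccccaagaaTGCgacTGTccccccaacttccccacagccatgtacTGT
Prelp: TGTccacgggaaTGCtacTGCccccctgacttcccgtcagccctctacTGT
Omd: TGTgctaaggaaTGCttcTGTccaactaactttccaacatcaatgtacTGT
Ogn: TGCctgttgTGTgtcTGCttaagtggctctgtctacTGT
Podn: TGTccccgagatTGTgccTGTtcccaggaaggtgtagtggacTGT
In Dcn, Bgn and Aspn 6 residues separate the last pair of cysteines, and in the 4 class II genes 9 residues do. Ogn has 2 residues between its first pair, where every other member has 3, and Podn has 7 between its last pair. Each stretch lies within 1 coding exon. On the plus strand the stretches are at chr10:97483507-97483548 (Dcn), chr10:97568353-97568403 (Lum), chr1:134040449-134040499 (Fmod), chrX:73490979-73491020 (Bgn), chr13:49551865-49551906 (Aspn), chr13:49589659-49589709 (Omd) and chr13:49615566-49615604 (Ogn). On the minus strand they are at chr1:133915151-133915201 (Prelp) and chr4:108027042-108027086 (Podn).

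The translated coding sequences set class I apart and grouped class II less tightly. Over a global alignment Dcn and Bgn were 53.8% identical, Bgn and Aspn 51.9%, and Dcn and Aspn 47.7%. Within class II the closest pair was Lum and Fmod, at 42%, followed by Fmod and Prelp at 38.2%. Omd was less close to the rest of class II, at 31% with Fmod, 31.6% with Lum and 32.7% with Prelp. It was still less close to members of other classes, from 17.9% with Ogn to 24% with Bgn. Dcn and Lum, neighbours on chromosome 10 but of different classes, were 31.1% identical, about as much as Omd and Lum. Ser-Gly is the dipeptide to which chondroitin or dermatan sulfate chains are attached. Ahead of the cysteine cluster it occurred 1 time each in Dcn and Lum, 2 times in Bgn and 0 times in the other members. Tyrosines ahead of the cluster, which are sulfated in fibromodulin, numbered 11 in Fmod, 8 in Omd and 4 each in Lum and Ogn. Dcn and Aspn had 1 each, and Prelp, Bgn and Podn had 0. Both counts start at the first translated residue and so include the signal peptide, which the secreted protein lacks. They are therefore not counts of attachment or sulfation sites.

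Most members lie beside another gene of the family. Dcn (chromosome 10, 97479609 to 97518143) and Lum (97565128 to 97572703) are 47 kb apart, and Kera and Epyc follow on the same strand. Ecm2, Aspn (chromosome 13, 49544443 to 49567565), Omd (49582462 to 49592822) and Ogn (49608046 to 49624501) form a row on 1 strand with gaps of 11.7, 14.9 and 15.2 kb. On chromosome 1 Optc and Prelp (133910304 to 133921414) are 2.31 kb apart, and Fmod (134037254 to 134048277) lies 116 kb from Prelp on the other strand. No other protein-coding gene lies wholly between neighbours in these 3 groups. Podn is on chromosome 4 (108014791 to 108096445) and Bgn on the X chromosome (73483602 to 73495933).

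All 9 members were above 1 FPKM in each of the 4 libraries, so none entered through a single high library. Summed over the members, the level was 2645.3 FPKM in KO and 1944.2 in WT, and 2139.3 with siDyrk2 and 1976.4 with siNeg. These transcripts took 1.08% of all assigned fragments in KO against 0.832% in WT, and 0.942% with siDyrk2 against 0.879% with siNeg. By class, the ratio of KO to WT was highest for the class II sum (1.63, at 539.6 against 331.8 FPKM), while the class I sum had the larger gap in FPKM (1618.7 against 1289.2, a ratio of 1.26). These sums do not describe each member. Lum was the largest part of the class II sum (340.25 FPKM in KO and 185.36 in WT), and Fmod and Omd were 1.22-fold and 1.17-fold. In class I Dcn was 1.98-fold and Bgn 0.939-fold. With siDyrk2 the class II sum was 345.3 against 352.9 with siNeg. In bulk RNA a different share of cells making a transcript and a different amount per cell cannot be told apart.

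**Figure D1:**
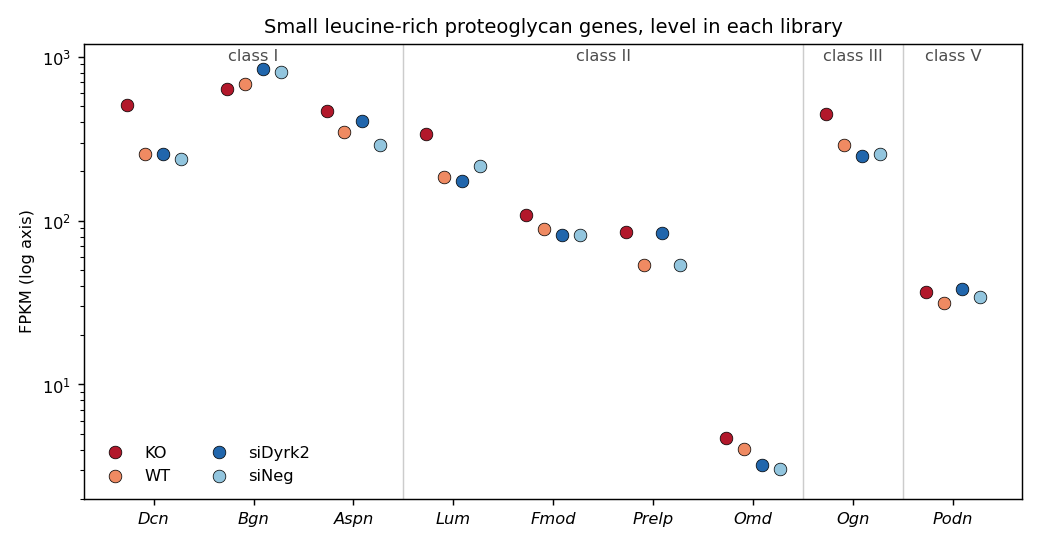
Level of each of the 9 members in FPKM on a log axis, 1 point per library (KO and WT, siDyrk2 and siNeg), grouped by class. Dcn stood at 507.71 FPKM in KO and between 237.79 and 256.64 in the other 3 libraries, whereas Prelp was at 85.9 in KO and 53.41 in WT, and at 84.59 with siDyrk2 and 53.33 with siNeg.

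Bgn was the highest member in every library per kilobase of the authors' exonic length, and Omd the lowest. In WT the order was Bgn, Aspn, Ogn, Dcn, Lum, Fmod, Prelp, Podn and Omd, and siNeg gave the same order. In KO the first 5 were Bgn, Dcn, Aspn, Ogn and Lum. With siDyrk2 Dcn (256.45 FPKM) stood just above Ogn (248.76) and Prelp (84.59) just above Fmod (82.3), neighbours at nearly equal levels. The order depends on the length used. The authors' exonic length of Dcn is 5.84 kb, which is 3.32 times that of its principal coding transcript (1.76 kb), and for Bgn the ratio is 2.52. Per kilobase of principal coding transcript, a length chosen after the values were seen, Dcn would be at 1686 in KO and 852 in WT, and Bgn at 1616.1 in KO and 1721.5 in WT. On that length Dcn was the highest member in KO and the second highest in the other 3 libraries. Ratios between libraries do not depend on the length.

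The first comparison asked how the family stood in knockout cells. In KO against WT 8 of 9 members were higher and 1, Bgn, was lower. Of 12817 measured genes, those with at least 1 FPKM in a library, 43.7% were higher and 55.6% lower by any amount. The median log2 ratio of FPKM + 1 was 0.43 over the members and -0.02 over all measured genes. Counts past 1.5-fold or 2-fold, here and below, use the ratio of FPKM + 1. At least 1.5-fold higher were 4 of 9 members (Dcn, Lum, Prelp and Ogn), beside 2.58% of all measured genes, and 0 were that much lower, beside 4.04%. At least 2-fold different were 0 members, beside 1.78% of genes. The members were chosen with earlier results of these data known, so these contrasts with all genes are description and not independent support.

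Dcn encodes decorin, which binds collagen fibrils and TGF-beta. Its level was 507.71 FPKM in KO and 256.64 in WT, and 256.45 with siDyrk2 and 237.79 with siNeg. Only KO stood apart, and the other 3 libraries lay close together. The KO level was 1.98-fold that of WT (1.95 to 2, the 95% interval for counting error alone, as in all brackets after a fold), a log2 ratio of 0.98, just under the 2-fold line. With siDyrk2 the ratio to siNeg was 1.08-fold (1.06 to 1.1). Among 4812 genes with a mean of at least 10 FPKM, Dcn had the 17th highest ratio of KO to WT.

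Lum encodes lumican, a keratan sulfate proteoglycan needed for the transparency of the cornea. It was at 340.25 FPKM in KO and 185.36 in WT, and at 175.16 with siDyrk2 and 215.01 with siNeg. KO was again the highest library, and the siDyrk2 library was the lowest. The KO level was 1.84-fold that of WT (1.79 to 1.88). The siDyrk2 level was 0.815-fold that of siNeg (0.792 to 0.838), a log2 ratio of -0.29. That is the reverse direction, and the siNeg level in turn was 1.16-fold that of WT (1.13 to 1.19).

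Ogn encodes osteoglycin, also called mimecan, a small member found in bone and cornea. It was at 450.32 FPKM in KO and 291.9 in WT, and at 248.76 with siDyrk2 and 255.02 with siNeg. As for Dcn, only the KO library was high. The KO level was 1.54-fold that of WT (1.51 to 1.57), and the siDyrk2 level was 0.975-fold that of siNeg (0.952 to 0.999).

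**Figure D2:**
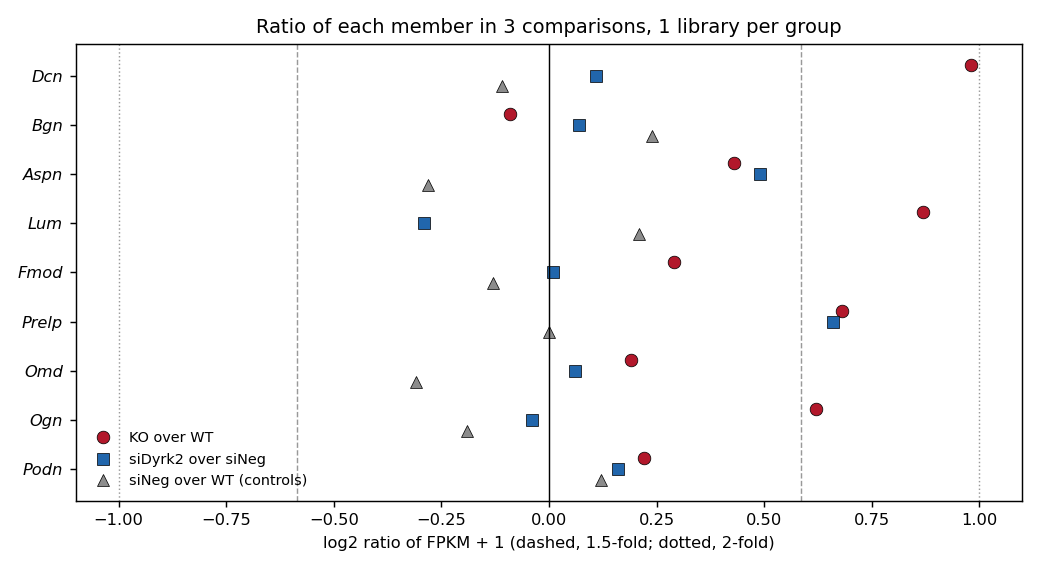
Log2 ratio of FPKM + 1 of each member in KO over WT, siDyrk2 over siNeg and siNeg over WT, 1 library per group, with lines at 1.5-fold and 2-fold. Dcn, Lum and Ogn lay to the right for KO (0.98, 0.87 and 0.62) but not for siDyrk2 (0.11, -0.29 and -0.04), and Prelp lay at 0.68 for KO and 0.66 for siDyrk2.

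Prelp encodes a proline- and arginine-rich protein that links basement membranes to collagen. It was at 85.9 FPKM in KO and 53.41 in WT, and at 84.59 with siDyrk2 and 53.33 with siNeg. Both libraries with little Dyrk2 were high and nearly equal, and both controls were low and nearly equal. The ratios were 1.61-fold in KO against WT (1.55 to 1.67) and 1.59-fold with siDyrk2 against siNeg (1.52 to 1.65). Between controls, siNeg was at 0.999 times WT (0.956 to 1.04).

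Aspn encodes asporin, a close relative of decorin that binds collagen and TGF-beta. It was at 469.96 FPKM in KO and 349.72 in WT, and at 404.77 with siDyrk2 and 288.23 with siNeg. Both libraries with little Dyrk2 exceeded both controls, but the controls differed more than for Prelp. The ratios were 1.34-fold in KO (1.32 to 1.37) and 1.4-fold with siDyrk2 (1.37 to 1.44), and siNeg was at 0.824 times WT (0.806 to 0.842).

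The promoter windows of Prelp and Aspn are shown because these are the members that were higher by more than the largest difference between the controls in both comparisons. They come from RefSeq (GRCm38.p6) and run from 250 bases before the start to 50 after it, 5′ to 3′ in the direction of the gene. Prelp is at chr1:133921352-133921651 on the minus strand and Aspn at chr13:49544193-49544492 on the plus strand. The capitals mark TATAAA or its reverse complement.
Prelp: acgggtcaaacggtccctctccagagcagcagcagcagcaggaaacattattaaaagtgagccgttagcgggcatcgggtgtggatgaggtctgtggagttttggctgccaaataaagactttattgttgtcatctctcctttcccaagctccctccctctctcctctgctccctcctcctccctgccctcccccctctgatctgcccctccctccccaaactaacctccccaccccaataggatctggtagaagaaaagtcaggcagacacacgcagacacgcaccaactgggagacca
Aspn: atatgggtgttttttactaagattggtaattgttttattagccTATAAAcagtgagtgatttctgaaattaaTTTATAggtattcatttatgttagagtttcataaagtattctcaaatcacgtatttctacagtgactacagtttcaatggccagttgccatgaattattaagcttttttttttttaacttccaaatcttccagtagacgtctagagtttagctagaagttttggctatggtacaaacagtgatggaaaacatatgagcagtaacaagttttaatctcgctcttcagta
The 2 windows differ in base composition, with 55.3% GC in Prelp and 31% in Aspn, against a median of 52.7% over 32851 windows. The GLI letters TGGGTGGTC, searched on both strands, were in 0 of 8 windows of 7 members and in 0.253% of all windows. The AP-1 letters TGANTCA were in 0 member windows and in 7.81% of all, and TATAAA was in those of Aspn and Ogn and in 13.6% of all. Dcn and Lum were not in the promoter table used here.

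The other members differed less. Bgn encodes biglycan, which like decorin binds collagen and TGF-beta and can signal through Toll-like receptors. It was at 641 FPKM in KO and 682.8 in WT, and at 845.9 with siDyrk2 and 808.42 with siNeg. Both siRNA libraries were above both others. The siNeg level was 1.18-fold that of WT (1.17 to 1.19), more than the 0.939-fold of KO against WT (0.93 to 0.947) or the 1.05-fold of siDyrk2 against siNeg (1.04 to 1.06).

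Fmod encodes fibromodulin, a regulator of collagen fibrils in tendon. It was at 108.78 FPKM in KO and 89.06 in WT (1.22-fold, 1.18 to 1.26), and at 82.3 with siDyrk2 and 81.51 with siNeg. Podn encodes podocan, a larger relative with more repeats. It was at 36.65 FPKM in KO and 31.34 in WT, and at 38.19 with siDyrk2 and 34.1 with siNeg, and the ratio was 1.17-fold in KO (1.11 to 1.23) and 1.12-fold with siDyrk2 (1.07 to 1.18). Omd encodes osteomodulin, a bone-matrix member, and was the rarest at 4.7 FPKM in KO and 4.01 in WT, and 3.21 with siDyrk2 and 3.03 with siNeg. For Omd the counting intervals of KO against WT (0.968 to 1.41) and of siDyrk2 against siNeg (0.837 to 1.35) both included 1. Neither difference went beyond counting error. An interval that leaves out 1 for another member does not show a difference between cultures.

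The second comparison asked how the family stood after an siRNA against Dyrk2. With siDyrk2 7 of 9 members were higher than with siNeg, beside 54.3% of measured genes. Lum and Ogn were lower, beside 45% of genes. The median log2 ratio was 0.07 over the members and 0.02 over all measured genes. At least 1.5-fold higher was 1 member, Prelp, beside 3.77% of genes, and 0 were that much lower, beside 2.73%. At least 2-fold different were 0 members, beside 1.54% of genes. In this pair the members as a group therefore lay close to the background.

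Between the controls, siNeg against WT, 3 of 9 members were higher and 6 lower, beside 48.3% and 51% of measured genes. The log2 ratios ran from -0.31 (Omd) to 0.24 (Bgn), with a median of -0.11, and 0 members were at least 1.5-fold different, beside 3.78% of genes, or 2-fold different, beside 0.928%. These values give the only measure of how far libraries with intact Dyrk2 differ, although these libraries also differ in transfection. Outside that largest control difference of 0.31 lay 5 members in KO against WT (Dcn, Lum, Ogn, Prelp and Aspn) and 2 with siDyrk2 against siNeg (Prelp and Aspn). That limit is set by Omd, the rarest member, whose value was -0.40 with no pseudocount and -0.17 with a pseudocount of 5. Without Omd the limit is 0.28 (Aspn, -0.28), and Fmod in KO (0.29) and Lum with siDyrk2 (-0.29) also lie just outside it.

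Set side by side, the comparisons divided the members. Prelp, Aspn and Podn were above both controls in both libraries with little Dyrk2, which was so for 16.3% of measured genes, and 0 members were below both controls in both, beside 16.6%. Prelp alone was at least 1.5-fold higher in both comparisons, as were 0.453% of measured genes. Dcn, Lum and Ogn were high in the knockout library alone, with KO log2 ratios that exceeded those of siDyrk2 by 0.87, 1.17 and 0.66. For Prelp and Aspn the same differences were 0.02 and -0.06. With single libraries, a test of these differences could not be made.

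**Figure D3:**
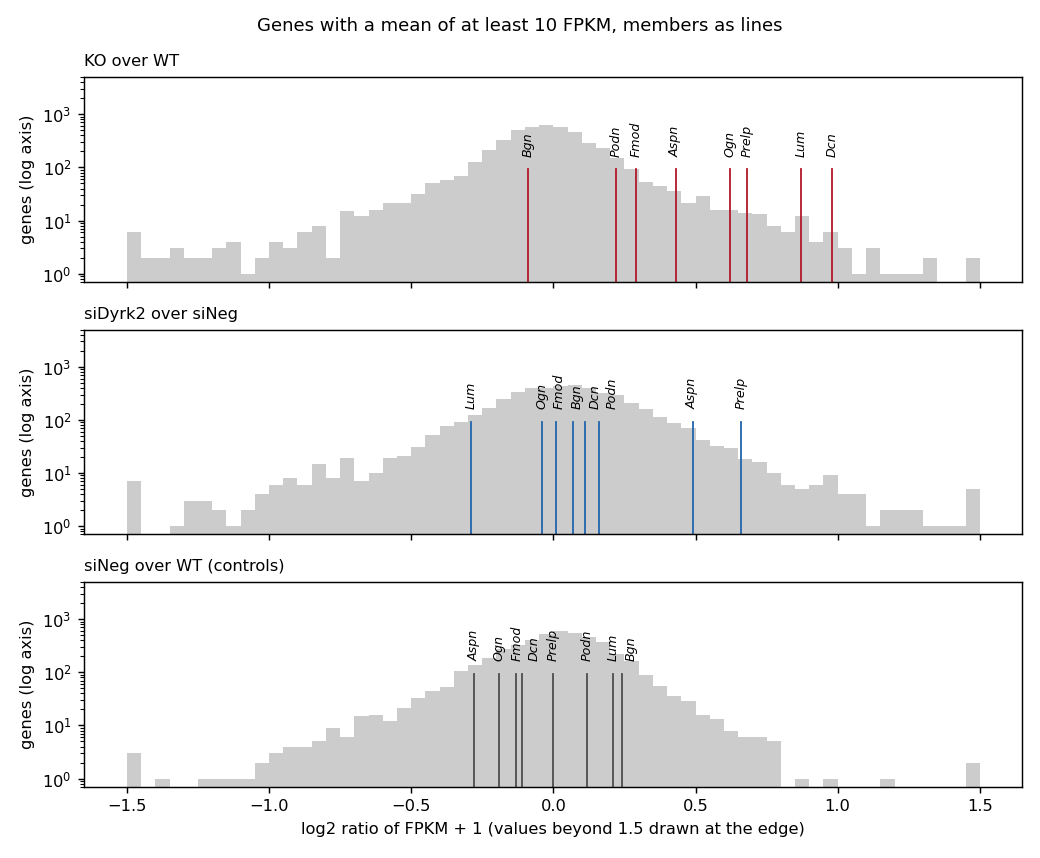
Histogram of log2 ratios of FPKM + 1 over 4812 genes with a mean of at least 10 FPKM (count on a log axis) in each comparison, with the 8 members above that level as lines. In KO over WT 7 of these 8 members lay above 0, 4 of them beyond 1.5-fold (2% of the genes plotted), whereas with siDyrk2 6 of 8 lay above 0, Prelp (0.66) beyond 1.5-fold and Aspn at 0.49, and between the controls 3 of 8 did.

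Family neighbours gave partly similar values. Of the 8 other genes of the family, 3 reached 1 FPKM in a library. Kera, which encodes the corneal proteoglycan keratocan and follows Lum on chromosome 10, was at 3.13 FPKM in KO and 1.56 in WT, and at 1.67 with siDyrk2 and 0.57 with siNeg. Its ratio was 2.01-fold in KO (1.53 to 2.65) and 2.93-fold with siDyrk2 (1.87 to 4.75), but siNeg itself was at 0.365 times WT (0.227 to 0.574). The siDyrk2 level of Kera was therefore close to that of WT. Epyc, the next gene in that row, stayed between 0.54 and 1.05 FPKM, and Tsku, a secreted relative on chromosome 7, was at 14.79 FPKM in KO and 15.92 in WT, and at 19.77 with siDyrk2 and 18.59 with siNeg. Ecm2, at the head of the chromosome 13 row, was at 0.81 FPKM in KO and 0.44 in WT, and at 0.82 with siDyrk2 and 0.27 with siNeg. Chad was at 0 in all 4 libraries.

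The sugar chains of these proteins are made by shared enzymes. Most of those genes differed by less than 1.5-fold, as did most measured genes. Of all measured genes 2.58% were at least 1.5-fold higher and 4.04% lower in KO. With siDyrk2 these shares were 3.77% and 2.73%, and between controls 3.78% differed that much in either direction. Of 7 measured enzymes that build the linkage to the core protein 0 were at least 1.5-fold different in any comparison, which is near those shares. Of 14 measured chondroitin and dermatan sulfate genes 1 was that much higher in KO, Csgalnact1, which starts the chain. It was at 31.56 FPKM in KO and 17.09 in WT (1.85-fold, 1.75 to 1.95), and at 16.55 with siDyrk2 and 13.42 with siNeg. In siDyrk2 against siNeg 1 of the 14 was at least 1.5-fold higher, and it was the sulfotransferase Chst7 (3.82 against 2.16 FPKM), named after its value was seen. Of 5 measured keratan sulfate genes 0 were at least 1.5-fold different in KO and 1 was higher with siDyrk2, the sulfotransferase Chst1 (2.38 FPKM against 0.99 with siNeg), named after its value was seen. Chst2, also a sulfotransferase, was lower in both comparisons, at 4.54 FPKM in KO and 5.64 in WT, and at 4.3 with siDyrk2 and 6.52 with siNeg.

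As a list, collagen and crosslinking genes did not share the members' KO median. Over 16 genes the median log2 ratio was 0.02 in KO and -0.11 with siDyrk2. In KO 9 were higher and 7 lower, beside 43.7% and 55.6% of measured genes. On the ratio of FPKM + 1, 0 were at least 1.5-fold different in either comparison. Of all measured genes 2.58% were that much higher and 4.04% lower in KO, and 3.77% and 2.73% with siDyrk2. Col5a3 was at 54.73 FPKM in KO and 38.47 in WT (1.42-fold, 1.38 to 1.47), and at 53.49 with siDyrk2 and 41.86 with siNeg. Col1a2, a chain of type I collagen, was at 1331.56 FPKM in KO and 1274.2 in WT, and at 931.79 with siDyrk2 and 1265.06 with siNeg. Col14a1, a collagen of the fibril surface, was at 79.48 FPKM in KO and 55.84 in WT (1.42-fold, 1.39 to 1.46), and at 31.83 with siDyrk2 and 43.99 with siNeg. Like Lum, it was highest in KO and lowest with siDyrk2. The KO ratios of Col5a3 and Col14a1 exceeded that of the member Aspn (1.34-fold). Of 5 measured genes for procollagen processing 0 were at least 1.5-fold different in KO or with siDyrk2. Bmp1, whose protease trims procollagens and the biglycan precursor, was at 40.41 FPKM in KO and 36.09 in WT, and at 34.12 with siDyrk2 and 33.6 with siNeg. Over 3 measured large matrix proteoglycans 0 were at least 1.5-fold different on the ratio of FPKM + 1. Vcan (versican) was at 18.7 FPKM in KO and 18.18 in WT, and at 25.5 with siDyrk2 and 21.47 with siNeg.

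Proteases that cut the members, and receptors and ligands that they bind, were mixed. For the counts that follow, the shares of all measured genes at least 1.5-fold higher and lower were 2.58% and 4.04% in KO. With siDyrk2 they were 3.77% and 2.73%. Of 10 measured protease genes 1 was at least 1.5-fold higher and 1 lower in KO, and 2 were higher with siDyrk2. Mmp2, a gelatinase that also cleaves decorin, was at 482.44 FPKM in KO and 272.61 in WT (1.77-fold, 1.74 to 1.8), and at 278.29 with siDyrk2 and 252.62 with siNeg. Adamts4, an aggrecanase, was at 5.22 FPKM in KO and 10 in WT, and Adamts1 was at 123.27 with siDyrk2 and 62.92 with siNeg. Among 13 TGF-beta genes 1 was at least 1.5-fold higher in KO, and 3 were higher and 1 lower with siDyrk2. Tgfbi, a TGF-beta-induced matrix protein, was at 20.9 FPKM in KO and 9.96 in WT, but also at 17.53 with siNeg. Of 7 measured receptors 1 was at least 1.5-fold higher in KO and 2 with siDyrk2, among them Tlr4, a receptor for biglycan, at 5.99 FPKM with siDyrk2 and 3.59 with siNeg.

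**Figure D4:**
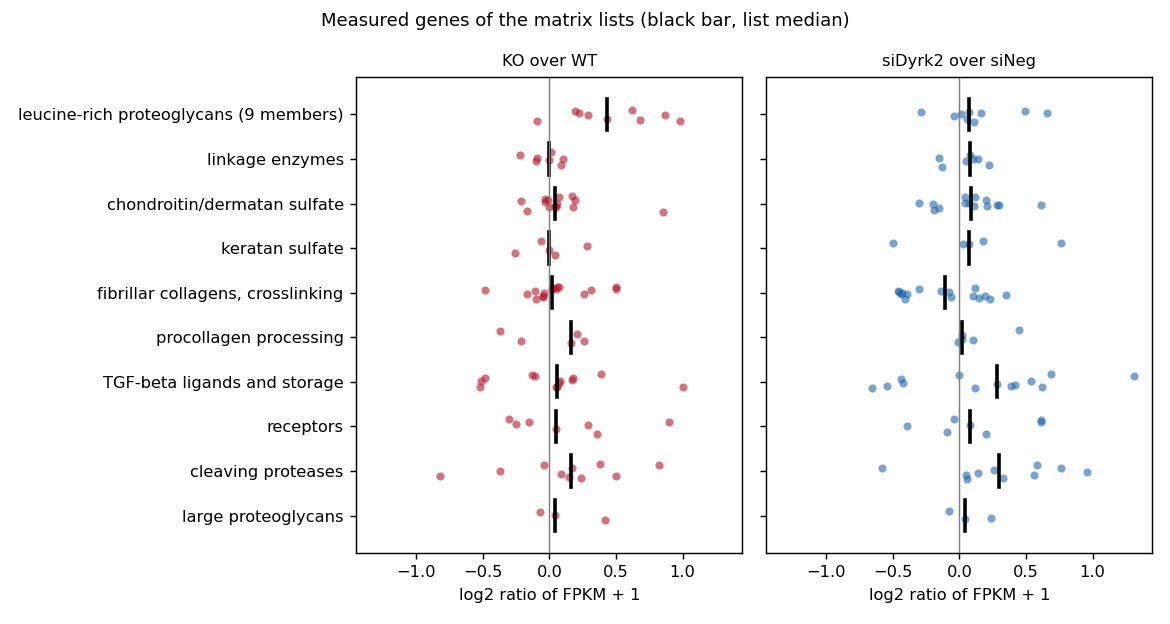
Log2 ratio of FPKM + 1 of each of the 9 members and of every measured gene of 9 related lists in KO over WT and siDyrk2 over siNeg, with black bars at the list medians. The members' median was 0.43 in KO, and those of the 9 lists plotted lay between 0 and 0.16. The other genes of the family, not plotted, had a median of -0.10 in KO over 3 measured genes. With siDyrk2 the members' median of 0.07 lay among those of the other lists.

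By likeness of pattern over the 4 libraries, the genes nearest to Dcn among 4486 other protein-coding genes were Mmp2, Selenop, Gja1, Cemip and Csgalnact1, at distances of 0.15 to 0.168 on the centred log2 scale. Among the members, Ogn (0.274) and Lum (0.343) were nearest to Dcn, at places 21 and 28 of 4493, and Bgn was farthest (1.15, place 3906). With 4 libraries and KO high, such closeness rests mostly on the KO library. With a pseudocount of 5, 2 of the 5 nearest genes were shared.

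Markers of other cells moved in the same comparison as the members. In KO 11 of 11 measured macrophage and leukocyte markers were higher than in WT, 9 of them at least 1.5-fold, beside 2.58% of all measured genes. Summed over the 12 listed genes, the level was 549.42 FPKM in KO and 276.94 in WT, and 399.19 with siDyrk2 and 321.9 with siNeg. Most of that was Lyz2, at 328.57 FPKM in KO and 152.06 in WT, and at 196.09 with siDyrk2 and 154.19 with siNeg. Genes of mitosis (G2/M) were lower in KO in 13 of 13 measured, with sums over the 14 listed of 51.17 FPKM in KO and 134.81 in WT, and 179.35 with siDyrk2 and 195.79 with siNeg. Smooth muscle and pericyte markers were lower in KO in 6 of 6 measured and higher with siDyrk2 in 6 of 6, with sums over the 7 listed of 355.92 FPKM in KO and 597.58 in WT, and 1291.48 with siDyrk2 and 725.23 with siNeg. Acta2 made up most of these sums, at 322.19 FPKM in KO and 536.77 in WT, and at 1204.72 with siDyrk2 and 668.51 with siNeg. Between the controls the macrophage markers were higher with siNeg than WT in 11 of 11 and the G2/M genes in 13 of 13. Of all measured genes 43.7% were higher and 55.6% lower by any amount in KO. With siDyrk2 54.3% were higher, and with siNeg 48.3% were higher than in WT. The part of these marker lists in the members' values was not tested.

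Adipocyte markers were also higher in KO, in 4 of 4 measured of 9 listed, with a median log2 ratio of 0.50 and sums over the whole list of 96.5 FPKM in KO and 60.9 in WT, and 67.45 with siDyrk2 and 57.63 with siNeg. Cd36, a fatty acid transporter that macrophages carry too, was at 19.38 FPKM in KO and 8.29 in WT, and Lpl, a lipase, at 61.27 in KO and 41.31 in WT. Adipoq and Cidec, which define mature fat cells, were at 0 in every library. Epithelial and mesothelial markers were higher in KO in 3 of 3 measured of 8 listed, at low levels, with Upk3b at 3.2 FPKM in KO and 1.95 in WT, and Epcam at 0.06 or less in every library. Of all measured genes 43.7% were higher in KO by any amount. The part of the adipocyte or the epithelial and mesothelial list in the members' values was not tested.

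The remaining marker lists were mixed. Of the bone list 2 of 7 genes were measured, Spp1 at 58.67 FPKM in KO and 46.59 in WT and Runx2 at 2.05 in KO and 3.03 in WT, while Sp7 was at 0.06 or less in every library. Of the cartilage list 2 of 8 were measured, Sox9 at 3.95 FPKM in KO and 3.99 in WT and Col2a1 at 1.2 in KO and 0.9 in WT, while Acan was at 0.03 or less. Of the tendon list 3 of 4 were measured, with Tnmd at 40.68 FPKM in KO and 44.73 in WT, and at 41.07 with siDyrk2 and 39.8 with siNeg. Of the endothelial list only Tek was measured, at 4.52 FPKM in KO and 4.63 in WT, while Pecam1 was at 0.05 or less. Of the skeletal muscle list 2 of 6 were measured, Des and Acta1, the second at 0.98 FPKM in KO and 2.1 in WT, and at 5.64 with siDyrk2 and 1.76 with siNeg, while Ckm was at 0 in every library.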

How the data were processed

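Polyadenylated RNA was made into stranded libraries, per the labels' protocols. Trimming and alignment tools named in the submitters' processing notes were cutadapt (1.9.1) and HISAT2 (2.0.1), with GRCm38 as the build. For counting, the program, strand setting and annotation were not given in the sources used here. Each deposited file gives FPKM and the authors' exonic length per gene, per the file headers, and FPKM times length in kilobases summed to 1e+06 within rounding in each file. Of 55573 identifiers, 55480 matched GENCODE M21, which gave symbols and coordinates.

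Files hold no counts. Depth was estimated as the number of fragments that makes the FPKM of genes up to 200 bases whole within the 0.005 FPKM of rounding, which placed 100% of 341 to 402 genes. The search and the ratios were tested on simulated data. Ratios are log2 of FPKM + 1, which understates differences of low genes, and "fold" is the ratio of deposited FPKM. Intervals are exact 95% Clopper-Pearson intervals on estimated fragments and cover counting error only. Measured genes had at least 1 FPKM in 1 or more libraries (12817). Genes were counted at 1.5-fold and 2-fold on the ratio of FPKM + 1. A low gene can therefore pass a fold on FPKM alone and not be counted. No p-value was computed. A count test was not run on FPKM.

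Members and lists were chosen with earlier results of these data known. Named genes were the 9 members, the measured genes of the rest of the family, and up to 4 genes per related list with the largest ratio in any comparison and a level of 5 FPKM or more in its higher library, not all of which are named. A gene that this rule selects is not reported here. Ecm2 and Chad, which were not measured, were named after their values were seen. Protein features came from translated GENCODE coding sequences, since no protein table was used here, and identities from global alignment in Biopython 1.88. Other tools were Python 3.11.15, pandas 2.3.3 and SciPy 1.17.1. Alternatives covered the pseudocount, filter, scaling and gene type.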

Additional observations from a re-analysis of the deposited data

Results flagged for a closer look

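Lum and Ogn went in opposite directions in the comparison of KO with WT and in that of siDyrk2 with siNeg, and these differences were not tested, as no group has a second library. For Lum the log2 ratio was 0.87 in KO and -0.29 with siDyrk2, a difference of 1.17. For Ogn it was 0.62 in KO and -0.04 with siDyrk2, a difference of 0.66, and the siDyrk2 value lay close to 0. Bgn was also of opposite sign, at -0.09 in KO and 0.07 with siDyrk2, both close to 0.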

How the results depend on the processing

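No paired analysis was possible because each group holds 1 library, and no replicate could be left out. Over 9 alternatives the members gave 240 values, all 240 on the same side of 1.5-fold as reported, and 238 of the same sign. In KO against WT all 80 kept their sign. The filters and the limit to protein-coding genes only choose which genes are kept. They could not change a member's own ratio, so their values among the 240 and the 80 matched by construction. Only the pseudocount and scaling alternatives could move a member's value. With trimmed-mean or median-of-ratios scaling 1 member, Dcn, reached 2-fold in KO (0 as deposited). No scaling moved the median of all genes by more than 0.02. The members' median of 0.43 in KO was 0.52 with a filter of 5 FPKM, which drops Omd, and 0.46 with median-of-ratios scaling. With siDyrk2 the median of 0.07 was 0.09 with that filter, 0.04 with median-of-ratios scaling, 0.05 with trimmed-mean scaling and 0.08 with a pseudocount of 0.1 or none, and between controls -0.11 became -0.06 with that filter. The option with no pseudocount and the coding transcript length were chosen after seeing the data.

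Counts over all genes depended on low values. At least 2-fold different in KO were 228 genes, and 607 with a pseudocount of 0.1, 22 with 5, 103 with the 5 FPKM filter, 109 with 1 FPKM required in all libraries and 112 protein-coding genes. For siDyrk2 these were 198, and 506, 33, 85, 88 and 86, and between controls 119, and 340, 11, 32, 33 and 17, in the same order. At 1.5-fold they were 849 in KO, and 1477, 201, 401 and 533 in the same order, and for siDyrk2 833, and 1490, 216, 437, 543 and 509 protein-coding genes. Between controls they were 485, and 1090, 76, 210, 271 and 227. Of the list genes past 1.5-fold, KO had 6, and 10 with a pseudocount of 0.1 and 3 with 5. With siDyrk2 they were 11, and 17, 2 and, with the 5 FPKM filter, 7. Between controls they were 8, and 2 with a pseudocount of 5 and 5 with either stricter filter. With a pseudocount of 5, 2 of the 5 genes nearest to Dcn and 3 of the 5 nearest to the members' mean were shared. A pseudocount of 5 damps low genes by construction. In other cases the cause was not tested.

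Depth limits the low genes of the family, with 26 fragments of Kera, 29 of Epyc, 31 of Ecm2 and 136 of Omd in siNeg. Intervals of the high members are narrow and do not stand for differences between cultures.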

Other observations

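Cenpp, a centromere protein gene noticed after its values were seen, runs on the opposite strand across Ecm2, Aspn, Omd and Ogn. It was at 0.21 FPKM in KO and 1.17 in WT, and at 1.16 with siDyrk2 and 1.31 with siNeg. Without a statement that strand was used in counting, fragments of overlapping genes cannot be told apart, although Aspn and Ogn were at 248.76 FPKM or more in every library. Podn overlaps Scp2 on the same strand, which was at 20.24 FPKM in KO and 18.69 in WT, and at 21.24 with siDyrk2 and 19.73 with siNeg.

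The 5 genes nearest to the members' mean pattern were Sqstm1, En1, Cpt1a, Osr1 and Sirpa, at distances of 0.0443 to 0.0672 over the 4 libraries. Sqstm1, which encodes an autophagy receptor, was at 181.29 FPKM in KO and 135.54 in WT, and at 144.2 with siDyrk2 and 131.57 with siNeg. Osr1, a transcription factor of connective tissue progenitors, was at 32.02 FPKM in KO and 24.26 in WT, and at 24.73 with siDyrk2 and 23.26 with siNeg.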
